A study of Mus musculus with 9 samples.

Results

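The 39 genes described here are type I interferon-stimulated genes, chosen by symbol as a gene module, and all were found in a table of 54532 annotated genes. All 39 had a mean of at least 0.5 FPKM (fragments per kilobase of gene length, scaled by a factor for each library) over the 9 libraries and were tested with the 14683 genes above that level. The study sequenced RNA of mouse duodenum in 3 groups of 3 libraries, here named by group and replicate number. CeD+GR mice were a delayed-type hypersensitivity (DTH) model of celiac disease that received composite nanoparticles of gliadin, a gluten protein fraction, and rapamycin, an inhibitor of the mTOR kinase, ahead of enhanced gluten stimulation. CeD mice were the same model under enhanced stimulation without the particles. Control mice were wild-type animals whose gluten stimulation was not enhanced, so gluten was common to all groups. Strain, age, sex and the steps that made the model are not given in the labels, nor whether a library came from 1 animal, so the p-values given here rest on a spread among libraries that may be technical.

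Type I interferons are antiviral cytokines that bind a receptor made of Ifnar1 and Ifnar2, whose kinases Jak1 and Tyk2 phosphorylate Stat2. Stat2 and Irf9 belong to ISGF3, a transcription factor complex that binds the interferon-stimulated response element in the promoters of its targets. In the gut epithelium type III interferons, through Ifnlr1 and Il10rb, use the same complex, so RNA levels of these targets do not tell the ligands apart. The targets include sensors of viral RNA, enzymes that degrade it or block its translation, and proteins that restrain the response.

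The core of the response element was looked for in the promoters of these genes because they share this control. Matches are shown here for some of the members whose levels are described later. RefSeq windows of 300 bases on GRCm38.p6, from 250 bases before to 50 bases after a transcript start, were matched by symbol for 29 of the 39. The core, GAAA followed by any 2 bases and a further GAAA, was searched on both strands, with overlapping matches allowed (on the other strand it reads TTTC, 2 bases, TTTC). It was found for 16 of the 29 (55.2%), against 3.99% of all 27025 genes of the promoter table and 3.83% of its 10096 tested genes. A match is a description of letters and not of bound protein. Each line below runs 5′ to 3′ on the strand of the gene, with matches in capitals.
Isg15 (chr4:156200860-156200911, minus strand): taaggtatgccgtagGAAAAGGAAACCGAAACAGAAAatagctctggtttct
Ifit1 (chr19:34640770-34640828, plus strand): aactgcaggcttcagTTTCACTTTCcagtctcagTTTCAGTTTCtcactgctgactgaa
Ifit1bl1 (chr19:34602048-34602087, minus strand): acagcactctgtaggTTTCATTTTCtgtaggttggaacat
Ifit3 (chr19:34583358-34583431, plus strand): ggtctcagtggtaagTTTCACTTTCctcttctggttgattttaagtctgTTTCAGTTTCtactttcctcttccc
Ifit3b (chr19:34607754-34607827, plus strand): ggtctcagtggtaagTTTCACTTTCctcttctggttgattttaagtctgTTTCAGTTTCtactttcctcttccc
Oas1a (chr5:120907515-120907560, minus strand): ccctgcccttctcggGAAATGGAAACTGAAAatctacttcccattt
Oas1g (chr5:120887601-120887646, minus strand): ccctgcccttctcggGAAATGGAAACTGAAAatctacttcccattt
Rsad2 (chr12:26456548-26456587, minus strand): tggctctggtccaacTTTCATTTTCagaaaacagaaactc
Bst2 (chr8:71537572-71537617, minus strand): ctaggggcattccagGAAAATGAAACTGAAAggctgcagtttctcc
Stat2 (chr10:128270261-128270300, plus strand): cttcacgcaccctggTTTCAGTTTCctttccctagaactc
Isg15 held 3 overlapping matches, the first of them 78 bases before the start. Ifit1 and Ifit1bl1, of the Ifit cluster on chromosome 19, each had their first match 104 bases before the start. The printed stretches of Ifit3 and Ifit3b were identical letter for letter, as were those of Oas1a and Oas1g. In the second promoter listed for Ifit1bl1 and in those of Ddx60, Oas3 and Trim30a the letters were also present, and in Ddx58, Ifih1 and Eif2ak2 they lay after the transcript start. For Ifit2, Irf7, Irf9, Oasl1, Oasl2, Xaf1, Ifi44, Cmpk2, Ifi35, Isg20, Dtx3l, Helz2 and Lgals3bp these letters were not in the window.

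**Figure D1:**
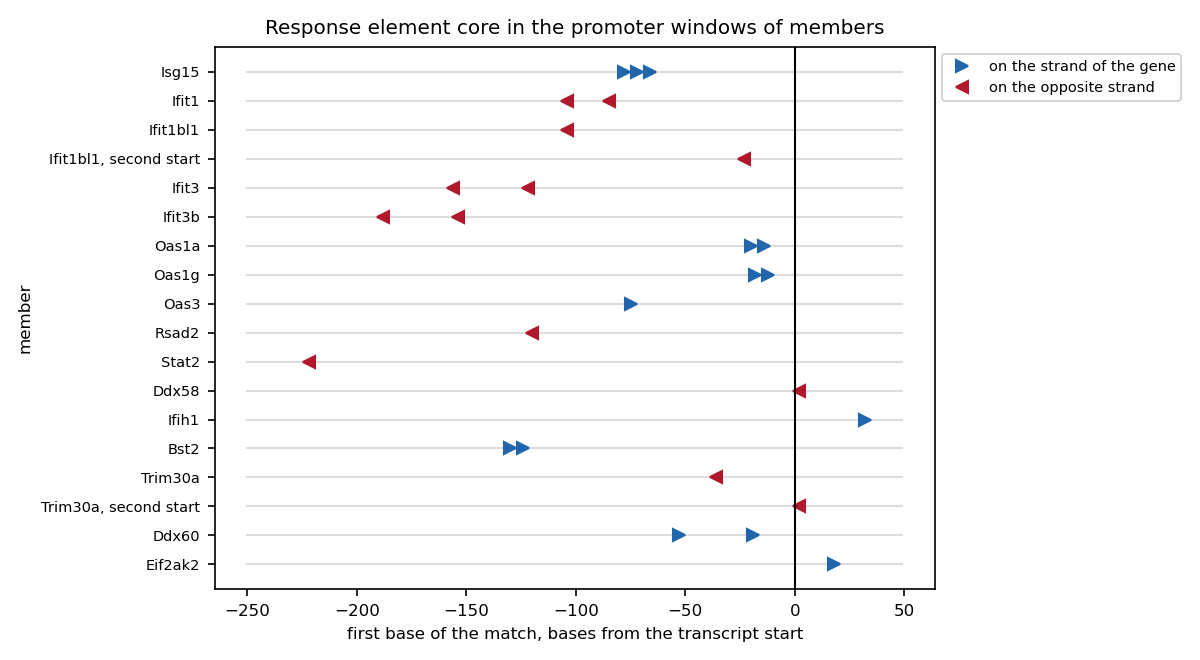
Position of each match to the response element core, in bases from the transcript start, for the 16 members that had one; triangles give the strand. Most matches lie within the 156 bases before the start, and that of Stat2 lies 222 bases before it.

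The libraries held 15373260 to 16852104 reads assigned to genes, and several stood apart. Gastric and duodenal gland markers (Tff2, Muc6, Gkn2, Muc5ac and Tff1) summed to 120743 FPKM in CeD+GR 3 and to at most 46.6 FPKM elsewhere. Their median in CeD+GR 3 was 1225 FPKM, so the sum came mostly from the highest of them. The list does not tell stomach glands from duodenal ones. Pancreas markers summed to 3352 FPKM in CeD 1 and at most 46.5 FPKM elsewhere. Paneth cell markers were high in all 3 replicate 1 libraries, and the fat cell hormone Adipoq reached 26.6 FPKM in CeD+GR 2. Markers of villus enterocytes summed to 23768, 28535 and 6043 FPKM in CeD+GR 1 to 3, 9990.2, 29168 and 22177 FPKM in CeD 1 to 3 and 12078, 26959 and 21750.3 FPKM in control 1 to 3. All 6 epithelial markers, such as Epcam and Vil1, were detected in every library. In bulk tissue, fewer cells of a type and less RNA per cell cannot be told apart.

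Every one of the 39 genes was detected in all 9 libraries. Isg15, a ubiquitin-like protein that is joined to other proteins (ENSMUSG00000035692, mm10 chromosome 4, 156199424 to 156200818), had the highest mean level per length, 154 FPKM over the 9 libraries, and Mx1, a GTPase that blocks viral nucleoproteins (ENSMUSG00000000386, mm10 chromosome 16, 97447035 to 97462907), the lowest, 2.72 FPKM. The mean levels of Lgals3bp, a secreted galectin-binding glycoprotein, and of Ifit1, which binds viral RNA lacking a host cap mark, followed at 128 and 103 FPKM. The summed level of the 39 genes was 861, 1906 and 879 FPKM in CeD+GR 1 to 3, 963, 1408 and 1443 FPKM in CeD 1 to 3 and 1798, 1849.6 and 1203 FPKM in control 1 to 3. CeD+GR held both the highest library and the lowest ones, and the ranges of the 3 groups overlapped.

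**Figure D2:**
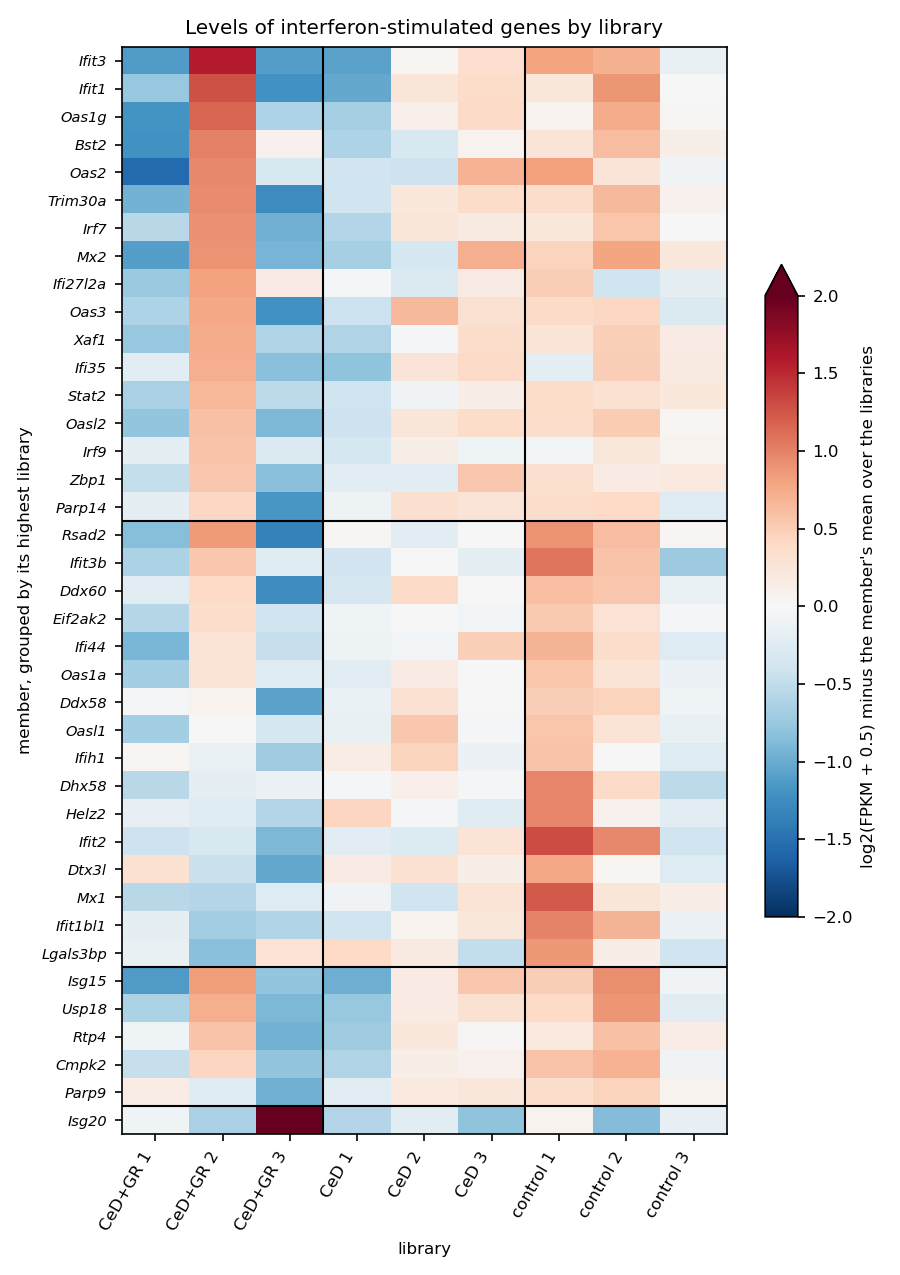
Level of each of the 39 genes in each library as log2(FPKM + 0.5) minus the mean of that gene over the 9 libraries; red is above and blue below the mean, black lines part the groups and the genes by their highest library. CeD+GR 2 is red for the upper block of 17 genes and blue for Mx1, Ifit1bl1 and Lgals3bp, and Isg20 exceeds the colour scale in CeD+GR 3.

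The genes fell into blocks by the library in which each was highest, a split made after the values were seen and given as a description. CeD+GR 2 was highest for 17 genes, among them Ifit1, Ifit3, Irf7, Irf9, Stat2, Oas2, Bst2 and Zbp1, control 1 for 16, among them Mx1, Ifit2, Ifit1bl1 and Rsad2, and control 2 for 5, Isg15, Usp18, Rtp4, Cmpk2 and Parp9. Over all tested genes, CeD+GR 2 was highest for 17.2%, control 1 for 7.44% and control 2 for 7.7%. CeD+GR 3 was highest for 1 gene, Isg20, against 23.8% of all tested genes. CeD+GR 3 was lowest for 19 genes and CeD+GR 1 for 14, where the shares of all tested genes were 20.6% and 11.5%. Within their groups, CeD 1 was the lowest CeD library for 28 genes, against 40.3% of all tested genes, and control 3 the lowest control library for 34, against 29.1%. Of the 12 genes in the promoter table that were highest in CeD+GR 2, 7 held the response element core, and of the 14 that were highest in control 1, 8 did.

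Interferon-stimulated genes were mostly lower in CeD than in control, a comparison that asks how the challenged model differs from wild-type mice, but none passed the test. Stat2, the ISGF3 subunit that carries the activation domain (ENSMUSG00000040033, mm10 chromosome 10, 128270559 to 128292849), stood at 10.9, 13.8 and 15.9 FPKM in CeD 1 to 3, against 18.8, 17.9 and 16.8 FPKM in control 1 to 3. Every CeD library was thus below every control library, as it was for Bst2, the membrane protein tetherin that holds budding virus on the cell (ENSMUSG00000046718, mm10 chromosome 8, 71534255 to 71537456), at 47.2, 58.2 and 76.0 FPKM in CeD 1 to 3 and 87.2, 112 and 78.6 FPKM in control 1 to 3. Rsad2, the radical SAM enzyme viperin, stood at 11.4, 9.59 and 11.0 FPKM in CeD 1 to 3, against 21.2, 17.3 and 11.4 FPKM in control 1 to 3. These were the only 3 of the 39 genes with no overlap downward (7.69%, against 2.49% of all tested genes), and the CeD 1 and control 3 values of Rsad2 nearly touched. None of the 39 lay above control without overlap, against 2.2% of all tested genes.

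Of the 39 genes, 36 had a log2 fold change below 0 (92.3%, against 49.4% of all tested genes), with a median of -0.31 beside 0.00 for all tested genes; the exceptions were Ifih1, Oas3 and Dtx3l. In limma 0 of the 39 passed an adjusted p of 0.05, with 0 of all genes called (percent called 0), and 0 had an unadjusted p under 0.05, against 0.701% of all tested genes. Limma-voom on recovered reads gave 0 of the 39 by the adjusted p and 0 by the unadjusted p, against 0.436% of all genes by the unadjusted p. With a replicate block, which pairs same-numbered libraries, the counts were 0 and 0, against 1.31% of all genes. The smallest unadjusted p belonged to Mx1, at 2.34, 1.76 and 3.09 FPKM in CeD 1 to 3 and 6.46, 3.03 and 2.77 FPKM in control 1 to 3. Its mean was 2.40 ± 0.669 FPKM in CeD and 4.09 ± 2.06 FPKM in control (SD, n = 3 each), a log2 fold change of -0.60 (SE 0.33) with limma's unadjusted p of 0.099 and adjusted p of 1. Control 1 set much of that mean, since the other control libraries lay within the range of CeD. Ifit2, a relative of Ifit1 that restricts viral translation, had a log2 fold change of -0.70 (SE 0.42) with an unadjusted p of 0.13. For Ifit1bl1, a mouse paralogue of Ifit1, it was -0.55 (SE 0.33) with 0.13, and for Cmpk2, a mitochondrial nucleotide kinase next to Rsad2, -0.53 (SE 0.37) with 0.19, each with an adjusted p of 1 in limma. Cmpk2 stood at 18.1, 30.2 and 29.3 FPKM in CeD 1 to 3, against 41.2, 45.2 and 26.4 FPKM in control 1 to 3, with CeD 2 and CeD 3 above control 3. These values depended on single libraries. Without control 1 the log2 fold change was -0.26 for Mx1, -0.36 for Ifit2 and -0.31 for Ifit1bl1, and without CeD 1 it was -0.36 for Ifit1bl1 and -0.30 for Cmpk2. Without control 3 it was -1.21 for Ifit2 and -0.86 for Ifit1bl1, both with an unadjusted p under 0.05 and an adjusted p of 1. The median fold change was -0.14 without CeD 1, the library with pancreatic RNA, and -0.20 without control 1. With replicates 2 and 3 only, which drops the replicate 1 libraries with high Paneth cell markers, it was -0.07, with 28 of the 39 genes below 0. It was -0.46 without control 3, with all 39 genes below 0.

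No T cell or leukocyte marker passed in this comparison, while their sums in CeD lay below those in control. The 6 T cell markers summed to 19.7 to 24.8 FPKM in CeD and 34.7 to 39.3 FPKM in control, with all 6 below 0 in log2 fold change and none at 0 FPKM in any library. In limma 0 of the 6 passed adjustment and 2 had an unadjusted p under 0.05, Cd8a (0.013) and Cd3g (0.029), against 0.701% of all tested genes. The 5 general leukocyte markers summed to 34.0 to 41.4 FPKM in CeD and 49.4 to 55.9 FPKM in control, all 5 with a log2 fold change below 0, 0 after adjustment and 0 by the unadjusted p. Their part in the lower interferon-stimulated genes was not tested. Epithelial markers overlapped, at 2479.7 to 3761 FPKM in CeD and 2609 to 2907 FPKM in control. Of the 7 villus enterocyte markers, 5 had a log2 fold change above 0 and 2 below, with 0 at an unadjusted p under 0.05 in limma.

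**Figure D3:**
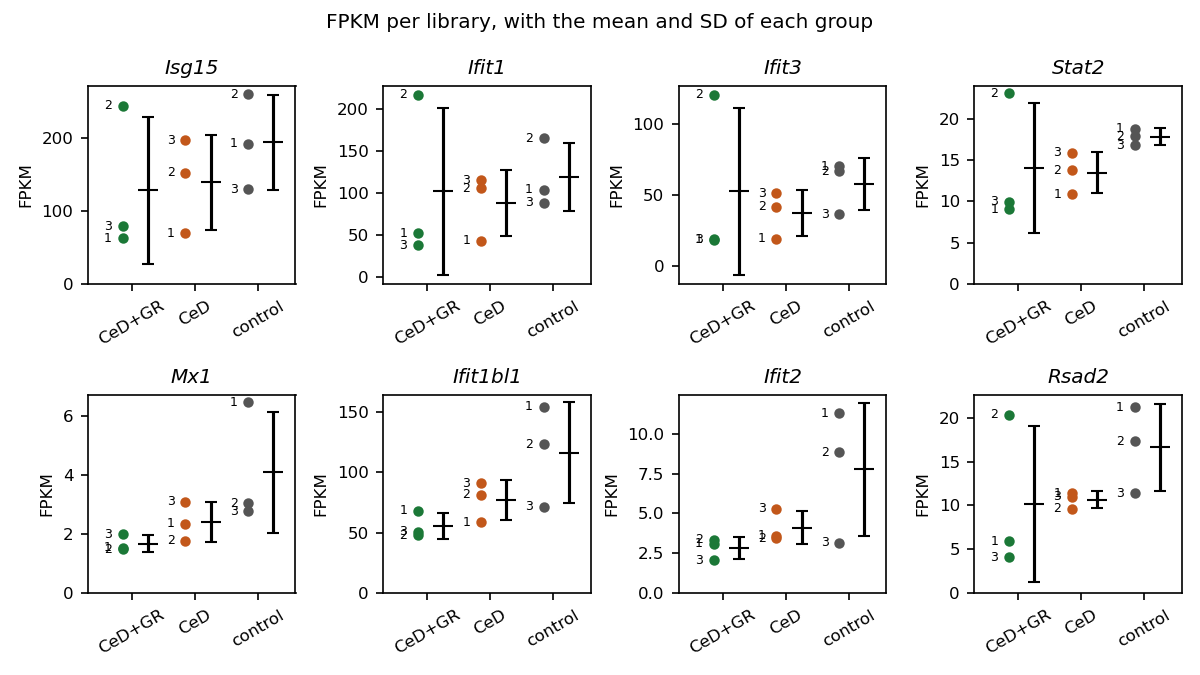
FPKM of 8 of the genes in each library, with the replicate number beside each point and the mean ± SD of 3 libraries as bars. CeD+GR 2 stands above the other CeD+GR libraries for Isg15, Ifit1, Ifit3, Stat2, Rsad2 and, by little, Ifit2, and below them for Mx1 and Ifit1bl1.

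In CeD+GR against CeD, which asks what the particles change in the challenged model, most of the genes were again somewhat lower and the size of the difference depended on single libraries. Ifit2 stood at 3.07, 3.33 and 2.06 FPKM in CeD+GR 1 to 3, against 3.58, 3.45 and 5.28 FPKM in CeD 1 to 3, and Dhx58, the helicase LGP2 that tunes RNA sensing, at 5.64, 7.47 and 7.81 FPKM in CeD+GR 1 to 3, against 8.26, 9.16 and 8.42 FPKM in CeD 1 to 3. In both, every CeD+GR library lay below every CeD library, by a narrow margin. They were the 2 of 39 genes with no overlap downward (5.13%, against 3.04% of all tested genes), and none was above without overlap, against 3.01%. Isg15 showed how far the CeD+GR libraries lay apart, at 62.0, 244 and 78.5 FPKM in CeD+GR 1 to 3, against 68.9, 152 and 197 FPKM in CeD 1 to 3. One CeD+GR library was above all of CeD, and CeD+GR 1 was below all of it.

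Of the 39 genes, 32 had a log2 fold change below 0 (82.1%, against 48.9% of all tested genes), with a median of -0.27 beside 0.01 for all tested genes. In limma 0 passed an adjusted p of 0.05 (percent called 0 over all genes) and 0 had an unadjusted p under 0.05, against 2.89% of all tested genes. By the unadjusted p, limma-voom gave 0, against 2.6% of all genes, and the replicate block 0, against 5.48%, and neither gave any by the adjusted p. Of the 7 villus enterocyte markers, none at 0 FPKM, all had a log2 fold change below 0, but 0 passed in limma, 0 had an unadjusted p under 0.05, and their sums overlapped between the groups. Other markers went the opposite way. Above 0 were 6 of 6 for T cells, 4 of 5 for leukocytes and 5 of 7 for macrophages and dendritic cells. None of these had an unadjusted p under 0.05 in limma. Their part was not tested. The median moved to -0.59 without CeD+GR 2 and to -0.42 without CeD 1. It was -0.04 without CeD+GR 1, with 21 genes below 0, and -0.04 without CeD+GR 3, with 22 below 0, and it was -0.16 without CeD 3. Without CeD+GR 2, 8 of the 39 genes had an unadjusted p under 0.05 (20.5%, against 6.4% of all tested genes) and 0 passed after adjustment. That library was the highest of CeD+GR for 30 of the 39 genes, against 33.4% of all tested genes. Dropping it therefore had to lower the CeD+GR mean of those genes. With any other single library left out, 0 to 2 of the 39 had an unadjusted p under 0.05 in limma, beside 226 to 1116 of the 14683 tested genes.

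The largest positive value belonged to Isg20, an exonuclease that degrades viral RNA, at 2.71, 1.67 and 32.9 FPKM in CeD+GR 1 to 3, against 1.75, 2.39 and 1.44 FPKM in CeD 1 to 3. It was high in CeD+GR 3 only, the library with high gastric and duodenal gland markers. Its log2 fold change of 1.40 (SE 0.88) had an unadjusted p of 0.14 and an adjusted p of 1 in limma. Without CeD+GR 3 the value was 0.18, and it was -0.13 when CeD 1 was dropped too and replicate 1 had a term of its own. The part of gland cells in that level was not tested. Dtx3l, a ubiquitin ligase that works in a complex with Parp9, stood at 21.5, 12.7 and 8.32 FPKM in CeD+GR 1 to 3, against 19.5, 21.6 and 18.9 FPKM in CeD 1 to 3, a log2 fold change of -0.58 (SE 0.37) with an unadjusted p of 0.15 and an adjusted p of 1. CeD+GR 1 lay within the range of CeD and the other CeD+GR libraries below it. Oasl1, an oligoadenylate synthetase-like inhibitor of Irf7 translation in mice, stood at 31.2, 50.6 and 39.3 FPKM in CeD+GR 1 to 3, against 45.2, 73.5 and 49.1 FPKM in CeD 1 to 3. Ifih1, the RNA sensor MDA5, stood at 15.2, 13.4 and 8.77 FPKM in CeD+GR 1 to 3, against 16.3, 20.3 and 13.5 FPKM in CeD 1 to 3. Both groups overlapped for each gene, and the log2 fold changes of -0.46 (SE 0.30) and -0.43 (SE 0.30) had unadjusted p of 0.16 and 0.19 and an adjusted p of 1 each in limma. Without CeD+GR 3 the log2 fold change was -0.27 for Dtx3l and -0.20 for Ifih1. Without CeD+GR 1 it was -0.93 for Dtx3l, with an unadjusted p under 0.05 and an adjusted p of 0.66, and -0.29 for Oasl1. Without CeD 2 it was -0.25 for Oasl1 and -0.28 for Ifih1.

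CeD+GR against control, which sets treated mice beside wild-type ones, shares libraries with both comparisons above and gave the lowest median. Mx1 stood at 1.54, 1.48 and 1.99 FPKM in CeD+GR 1 to 3, against 6.46, 3.03 and 2.77 FPKM in control 1 to 3, with no overlap and a log2 fold change of -1.002 (SE 0.33) (limma, unadjusted p = 0.014, adjusted p = 1). Without control 1 its log2 fold change was -0.66. Ifit1bl1 (ENSMUSG00000079339, mm10 chromosome 19, 34592888 to 34601968) stood at 68.1, 47.6 and 50.7 FPKM in CeD+GR 1 to 3, against 155, 123 and 71.3 FPKM in control 1 to 3, also with no overlap and a log2 fold change of -1.01 (SE 0.33) (limma, unadjusted p = 0.014, adjusted p = 1). The margin of Ifit1bl1 was small, since CeD+GR 1 came close to control 3. Ifit2 (ENSMUSG00000045932, mm10 chromosome 19, 34550694 to 34576419) had a log2 fold change of -1.17 (SE 0.42) with an unadjusted p of 0.022 and an adjusted p of 1 in limma, but its CeD+GR range of 2.06 to 3.33 FPKM reached past control 3 at 3.14 FPKM. Mx1 and Ifit1bl1 were the 2 of 39 genes below control without overlap (5.13%, against 3.04% of all tested genes), and none was above it, against 2.54%.

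Of the 39 genes, 37 had a log2 fold change below 0 (94.9%, against 50.3% of all tested genes), all but Isg20 and Ifi27l2a, with a median of -0.57 beside 0.00 for all tested genes. In limma 0 passed an adjusted p of 0.05 (percent called 0 over all genes) and 3, those just named, had an unadjusted p under 0.05 (7.69%, against 2.72% of all tested genes). By the unadjusted p, limma-voom gave 3 (7.69%, against 2.28% of all genes) and the replicate block 5 (12.8%, against 4.38%), and neither gave any by the adjusted p. Of the markers, 7 of 7 for villus enterocytes, 5 of 5 for leukocytes and 5 of 6 for T cells had a log2 fold change below 0, with 0 after adjustment in limma and 1, the T cell gene Cd8a, at an unadjusted p under 0.05 (0.031) and without overlap. Of the 7 macrophage and dendritic cell markers, 5 were above 0 and 2 below. Summed leukocyte markers overlapped, at 23.5 to 56.7 FPKM in CeD+GR and 49.4 to 55.9 FPKM in control, as did T cell markers, at 16.9 to 52.6 FPKM in CeD+GR and 34.7 to 39.3 FPKM in control. Their part was not tested. Parp9, a mono-ADP-ribosyltransferase that pairs with Dtx3l, came next at 27.9, 21.0 and 12.7 FPKM in CeD+GR 1 to 3, against 32.3, 34.3 and 26.2 FPKM in control 1 to 3, with a log2 fold change of -0.64 (SE 0.30) and an unadjusted p of 0.06 (adjusted p = 1). CeD+GR 1 lay above control 3, and without CeD+GR 3, the library with high gastric and duodenal gland markers, the log2 fold change was -0.34. The gene overlaps Dtx3l by 682 bases on the opposite strand, and without the strand setting of the counting their reads cannot be told apart there. Without CeD+GR 2 the median was -0.89, 26 of the 39 genes had an unadjusted p under 0.05 (66.7%, against 6.53% of all tested genes) and 0 passed after adjustment. That library was the highest of CeD+GR for 30 of the 39 genes, against 33.4% of all tested genes. Dropping it therefore had to lower the CeD+GR mean of those genes, and the count of 26 is no separate support. With any other single library left out, 1 to 8 of the 39 had an unadjusted p under 0.05 in limma, beside 189 to 1072 of the 14683 tested genes. Without CeD+GR 3 the median was -0.34.

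**Figure D4:**
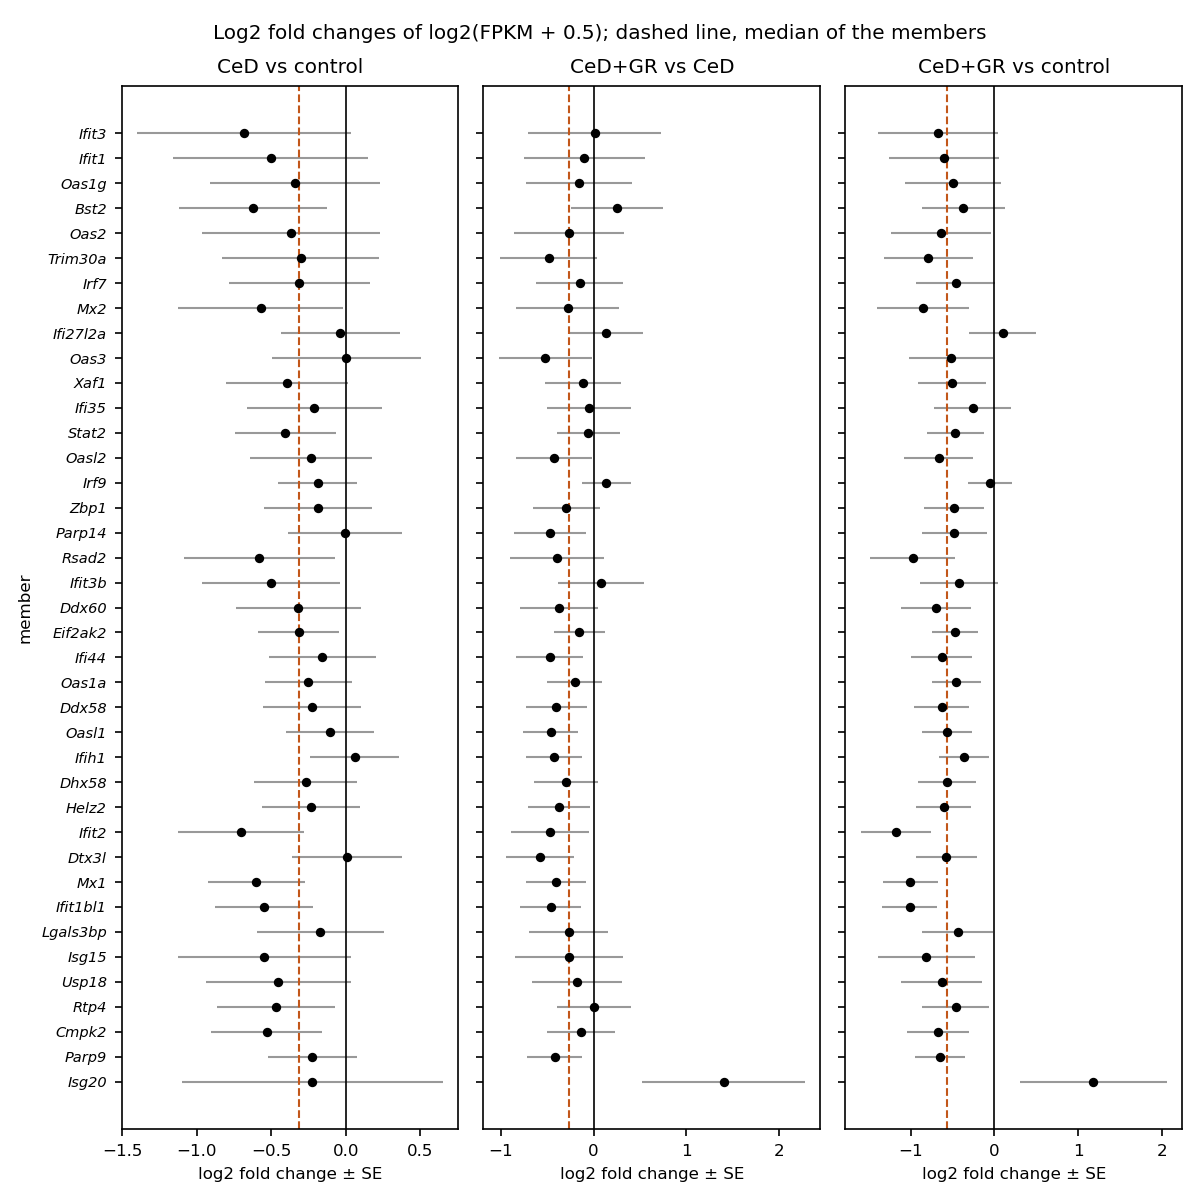
Log2 fold change of each of the 39 genes, on the scale of log2(FPKM + 0.5), in the 3 comparisons, with bars for SE and a dashed line at the median of the genes (-0.31, -0.27 and -0.57 from left to right). Most points lie below 0 with bars of about 0.41, and Isg20 lies far to the right in both comparisons of CeD+GR.

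The transcription factor genes Irf7, Irf9 and Stat2 were highest in CeD+GR 2. Irf7, the factor that amplifies interferon production, stood at 47.0, 131 and 35.3 FPKM in CeD+GR 1 to 3, 46.4, 82.4 and 78.6 FPKM in CeD 1 to 3 and 80.3, 103 and 70.0 FPKM in control 1 to 3. Its highest value was in CeD+GR 2, above every other library. Irf9, the DNA-binding subunit of ISGF3, stood at 12.3, 20.9 and 11.3 FPKM in CeD+GR 1 to 3, 10.8, 15.3 and 13.2 FPKM in CeD 1 to 3 and 13.5, 16.4 and 14.8 FPKM in control 1 to 3, and Stat2 reached 23.2 FPKM in CeD+GR 2, against 9.03 and 9.95 FPKM in the other CeD+GR libraries. Usp18, the protease that removes Isg15 from proteins and blocks the receptor, stood at 15.8, 41.3 and 13.1 FPKM in CeD+GR 1 to 3, 14.5, 27.9 and 30.9 FPKM in CeD 1 to 3 and 32.9, 46.1 and 21.4 FPKM in control 1 to 3. For Usp18 control 2 was slightly above CeD+GR 2, and CeD+GR 1, CeD+GR 3 and CeD 1 were the lowest libraries.

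Antiviral effectors did not all follow CeD+GR 2. Ifit1 (ENSMUSG00000034459, mm10 chromosome 19, 34640871 to 34650009) stood at 52.5, 217 and 38.0 FPKM in CeD+GR 1 to 3, 43.5, 106 and 115 FPKM in CeD 1 to 3 and 104, 165 and 88.8 FPKM in control 1 to 3. Ifit1bl1, of the same cluster, stood at 47.6 FPKM in CeD+GR 2, below every CeD and control library. The ratio of Ifit1 to Ifit1bl1 was 0.771, 4.55 and 0.750 in CeD+GR 1 to 3, 0.742, 1.30 and 1.27 in CeD 1 to 3 and 0.674, 1.34 and 1.25 in control 1 to 3. All 3 replicate 1 libraries and CeD+GR 3 had a ratio below 1, and CeD+GR 2 was far above the rest. Of all stretches of 50 bases in the longest coding transcripts, 7.13% for Ifit1 and 6.60% for Ifit1bl1 also occur in transcripts of other genes.

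The same library parted the pair Mx2 and Mx1, dynamin-like GTPases on chromosome 16. Mx2 stood at 1.70, 8.33 and 1.98 FPKM in CeD+GR 1 to 3, 2.48, 3.19 and 7.32 FPKM in CeD 1 to 3 and 5.90, 7.62 and 4.94 FPKM in control 1 to 3, and its ratio to Mx1 was 5.64 in CeD+GR 2 and 0.913 to 2.51 in the other 8 libraries. Ifit3, an adaptor that stabilises Ifit1 complexes (ENSMUSG00000074896, mm10 chromosome 19, 34583531 to 34588731), stood at 18.2, 121 and 18.6 FPKM in CeD+GR 1 to 3, 18.9, 41.4 and 51.2 FPKM in CeD 1 to 3 and 70.1, 66.7 and 36.2 FPKM in control 1 to 3. In CeD+GR 2 it was above all other libraries, and in CeD+GR 1, CeD+GR 3 and CeD 1 it was at nearly the same low level. Ifit2, in the same cluster, stood at 3.33 FPKM in CeD+GR 2 and the ratio of Ifit3 to Ifit2 there was 36.2, against 5.28 to 12.0 in the other libraries.

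Paralogues whose promoters carry identical stretches did not have equal levels. Ifit3b stood at 2.25 to 9.04 FPKM, and the ratio of Ifit3 to Ifit3b was 7.52, 19.8 and 5.53 in CeD+GR 1 to 3, 6.37, 10.2 and 14.8 in CeD 1 to 3 and 7.76, 10.6 and 16.1 in control 1 to 3. Oas1a and Oas1g, oligoadenylate synthetases whose product activates the RNA-cutting enzyme RNase L, ranged over 31.4 to 74.7 and 15.3 to 80.9 FPKM and had a ratio of Oas1g to Oas1a of 0.488, 1.32 and 0.546 in CeD+GR 1 to 3, 0.513, 0.677 and 0.923 in CeD 1 to 3 and 0.503, 0.984 and 0.785 in control 1 to 3. CeD+GR 2 was highest in both ratios, and the replicate 1 libraries and CeD+GR 3 were low. Shared stretches of 50 bases made up 51.2% of Ifit3, 45.0% of Ifit3b, 57.6% of Oas1a and 54.7% of Oas1g, so the split of reads within these pairs is uncertain. Oas2, a larger synthetase of the same locus on chromosome 5, shared none and stood at 2.76, 18.2 and 7.28 FPKM in CeD+GR 1 to 3, 6.87, 6.72 and 15.0 FPKM in CeD 1 to 3 and 16.4, 11.0 and 8.66 FPKM in control 1 to 3. Zbp1, a sensor of Z-form nucleic acids that can start necroptosis, stood at 13.2, 27.1 and 10.1 FPKM in CeD+GR 1 to 3, 15.9, 15.8 and 27.0 FPKM in CeD 1 to 3 and 23.1, 20.7 and 21.1 FPKM in control 1 to 3, with CeD+GR 2 and CeD 3 nearly equal at the top.

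Lgals3bp ran against this pattern, at 109, 67.5 and 147 FPKM in CeD+GR 1 to 3, 160.3, 138 and 86.0 FPKM in CeD 1 to 3 and 222, 133 and 91.6 FPKM in control 1 to 3. Its lowest library was CeD+GR 2 and its highest control 1. Helz2, a helicase that acts as a nuclear receptor coactivator, stood at 8.92 to 27.3 FPKM across the libraries, with its top value in control 1 too. Among the sensors and translation blockers, Ddx58, the RNA sensor RIG-I, ranged over 6.37 to 19.7 FPKM, Ddx60, a helicase linked to it, over 9.62 to 35.8 FPKM, and Eif2ak2, the kinase PKR that stops translation on double-stranded RNA, over 9.60 to 21.2 FPKM. All of these were highest in control 1, and Ddx58 and Ddx60 were lowest in CeD+GR 3. Ifi44 ranged over 2.85 to 9.66 FPKM and had its peak in control 1 and its lowest value in CeD+GR 1.

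Oasl2, Oas3 and Parp14, an ADP-ribosyltransferase, were among those highest in CeD+GR 2, over ranges of 28.3 to 80.1, 8.62 to 35.6 and 8.42 to 25.9 FPKM, and all had their lowest value in CeD+GR 3. Ifi35 ranged over 34.6 to 103 FPKM and Trim30a, a mouse inhibitor of Toll-like receptor signalling, over 8.66 to 41.6 FPKM, with the same libraries at both ends. Xaf1, a partner of the apoptosis inhibitor XIAP, ranged over 4.97 to 15.0 FPKM and Ifi27l2a over 12.6 to 37.7 FPKM, highest in CeD+GR 2 and lowest in CeD+GR 1. Rtp4, a chaperone that brings receptors to the cell surface, ranged over 18.0 to 52.8 FPKM, with control 2 and CeD+GR 2 nearly equal at the top and CeD+GR 3 lowest. Of the 50-base stretches of Rtp4, 13.6% also occur in transcripts of another gene. The ratio of the highest to the lowest library ran from 1.94 for Irf9 to 6.62 for Ifit3 and Oas2 among all members except Isg20, where it was 24.3.

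Few reads came from interferon genes themselves, and none of the 20 listed ligands was tested. Reads were recovered from the FPKM as whole numbers. CeD+GR 2 was the only library with reads of Ifnb1 (3 reads) and Ifna13 (7 reads), and it held 14 of the 18 reads of Ifnk, a keratinocyte interferon, with 3 in CeD 1 and 1 in control 1. Ifne, an epithelial type I interferon, had 1 read in CeD+GR 1 and 1 in CeD+GR 3. The other 13 type I genes Ifna1, Ifna2, Ifna4, Ifna5, Ifna6, Ifna7, Ifna9, Ifna11, Ifna12, Ifna14, Ifna15, Ifna16 and Ifnab had 0 reads in every library, and a count of 0 allows up to 3 reads each. The type III gene Ifnl3 had 2 reads, both in control 1, Ifnl2 had 0, and Ifng had 11 reads in all libraries together. Siglech, a marker of plasmacytoid dendritic cells, which are strong producers of type I interferon, stood at 0.324, 1.37 and 0.325 FPKM in CeD+GR 1 to 3, 0.298, 0.308 and 1.17 FPKM in CeD 1 to 3 and 0.292, 0.464 and 0.263 FPKM in control 1 to 3. It was highest in CeD+GR 2 (73 reads) and CeD 3 (65 reads). All 6 markers of these cells were detected in every library, with a median of 1.88 FPKM in CeD+GR 2, the highest of the 9 libraries after CeD 3. The markers did not move together. In CeD+GR against control 4 of the 6 had a log2 fold change above 0 and 2 below. Cox6a2 lay below every control library (-0.71, SE 0.35) and Ly6d above every one (1.11, SE 0.58). Of all tested genes, 3.04% lay below control without overlap and 2.54% above. The sum of the 6 markers comes mostly from Klk1 and Ly6d, and Klk1 stood at 4.60 FPKM in CeD+GR 2, the lowest of the 9 libraries, and 382 FPKM in CeD+GR 3. T cell markers summed to 32.5, 52.6 and 16.9 FPKM in CeD+GR 1 to 3, also highest in CeD+GR 2. Whether these cells or the fat tissue RNA of that library bear on its interferon-stimulated genes was not tested.

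**Figure D5:**
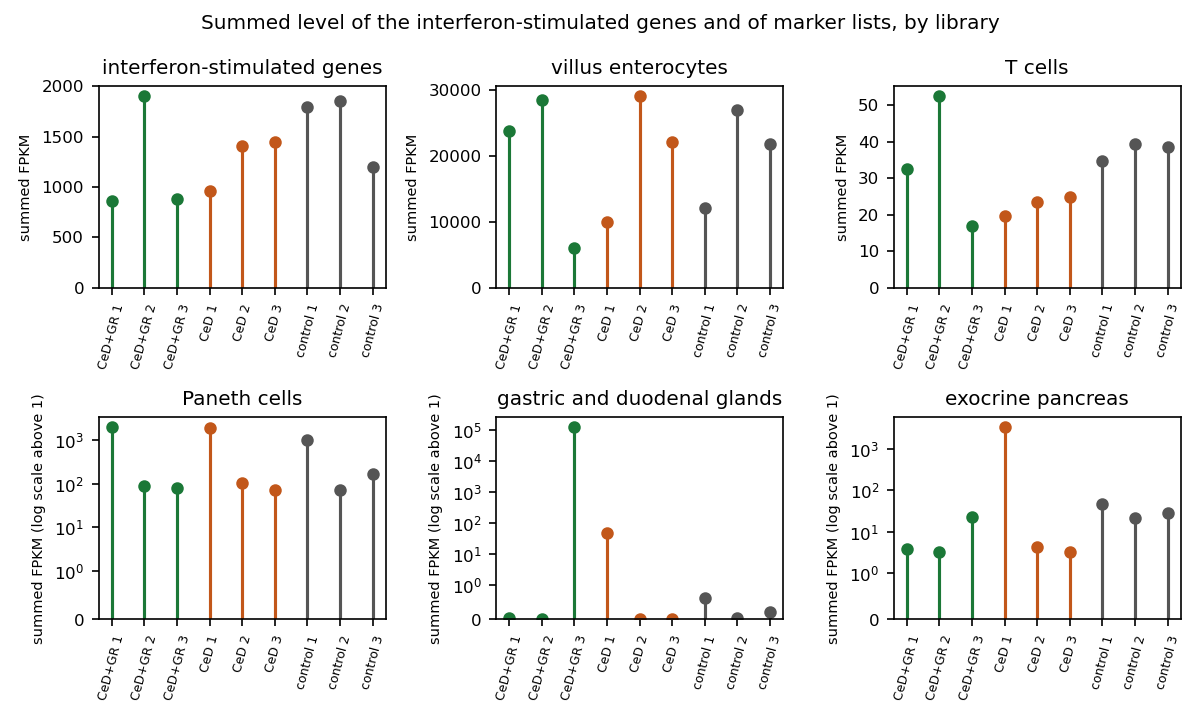
Summed FPKM of the 39 interferon-stimulated genes and of 5 marker lists in each library; the lower panels have a logarithmic axis above 1. The genes are highest in CeD+GR 2 and lowest in CeD+GR 1, CeD+GR 3 and CeD 1. Villus markers are lowest in CeD+GR 3 and CeD 1 but stand at 23768 FPKM in CeD+GR 1. In control 1 they are also low, at 12078 FPKM, while the genes stand at 1798 FPKM.

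Of the receptor and kinase genes, 0 passed in any comparison in limma, with 0 at an unadjusted p under 0.05. Ifnar1 and Ifnar2, the type I receptor chains, averaged 9.31 ± 2.84 and 8.18 ± 4.60 FPKM in CeD+GR, 9.32 ± 0.776 and 7.37 ± 2.59 FPKM in CeD and 11.1 ± 2.02 and 7.79 ± 1.65 FPKM in control (SD, n = 3 each). The type III receptor chain Ifnlr1 averaged 5.69 ± 2.71, 6.63 ± 0.838 and 6.45 ± 1.28 FPKM in CeD+GR, in CeD and in control, a smaller difference than the spread between libraries. Its partner Il10rb stood at 32.2, 59.6 and 17.3 FPKM in CeD+GR 1 to 3, 14.5, 40.9 and 37.5 FPKM in CeD 1 to 3 and 14.6, 47.5 and 44.7 FPKM in control 1 to 3, low in control 1, CeD 1 and CeD+GR 3, the libraries with the lowest villus markers. The kinases Jak1 and Tyk2 had log2 fold changes of -0.02 (SE 0.33) and -0.03 (SE 0.19) in CeD+GR against control.

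Among 11 tested sensors and adaptors upstream of interferon production, 0 passed adjustment in limma. Only 1, Tlr3, the endosomal receptor for double-stranded RNA, had an unadjusted p under 0.05 in the comparisons of CeD+GR. The shares of all tested genes were 2.89% against CeD and 2.72% against control. Tlr3 is named because its p was the smallest of this list there. It stood at 5.07, 5.11 and 5.22 FPKM in CeD+GR 1 to 3, 6.56, 7.98 and 8.43 FPKM in CeD 1 to 3 and 9.26, 8.81 and 7.11 FPKM in control 1 to 3. Every CeD+GR library lay below all the others, at nearly the same level, where 3.04% of all tested genes lay lower without overlap in each comparison. The log2 fold change was -0.53 (SE 0.19) against CeD and -0.65 (SE 0.19) against control (limma, unadjusted p = 0.02 and 0.0071, adjusted p = 1 each). Tlr3 did not share the high level of CeD+GR 2. The 7 feedback inhibitors, such as Socs1 and Ptpn2, had medians of -0.08, -0.04 and -0.05 when CeD was set against control, and CeD+GR against CeD and then control, with 0 at an unadjusted p under 0.05 in each.

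Other interferon-stimulated genes outside the 39 were listed for comparison, and 25 of 28 were tested, with Trex1 and Ifi44l listed at 0 in every library. Of the 25, 21, 17 and 22 had a log2 fold change below 0 for CeD over control, for CeD+GR over CeD and for CeD+GR over control, with medians of -0.21, -0.17 and -0.35. In limma 0 passed adjustment in each, and 1 had an unadjusted p under 0.05, Phf11d in CeD+GR against control, against 2.72% of all tested genes. Phf11d stood at 1.75, 2.36 and 3.43 FPKM in CeD+GR 1 to 3 and 9.18, 4.34 and 3.16 FPKM in control 1 to 3. Oas1b, another gene of the Oas1 cluster, stood at 1.56, 19.1 and 2.79 FPKM in CeD+GR 1 to 3, 2.28, 7.39 and 9.02 FPKM in CeD 1 to 3 and 5.85, 12.9 and 5.45 FPKM in control 1 to 3 and was highest in CeD+GR 2 like Oas1g. Genes more often used to read interferon gamma had 9, 6 and 9 of 12 members below 0 and medians of -0.18, 0.03 and -0.23 in the same comparisons, with 0 at an unadjusted p under 0.05. Cxcl10, a chemokine for activated T cells among them, stood at 10.4, 9.90 and 1.87 FPKM in CeD+GR 1 to 3, 1.72, 3.30 and 7.87 FPKM in CeD 1 to 3 and 7.63, 7.70 and 5.08 FPKM in control 1 to 3, with CeD+GR 1 just above CeD+GR 2.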

How the data were processed

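Directional RNA libraries of mouse duodenum, made after removal of ribosomal RNA per the labels' protocols, were grouped by the sample titles. The submitters' processing notes name mm10 as a build and DESeq2 1.20.0, featureCounts 1.5.0-p3, HISAT2 2.0.5 and fastp as tools, without saying what each did. The authors deposited FPKM per gene with gene lengths. Their formula, annotation and strand setting are unstated in the sources read. FPKM times length gave whole reads, within 0.1 reads, for 100% of values. The library sizes that the FPKM imply did not follow the reads assigned to genes. They were 17831210 for CeD 1, with 15373260 reads, and 14410550 for CeD 2, with 16195917 reads. Median-of-ratios factors of the deposited FPKM were equal in all libraries, so the values were already on that scale.

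One group-means model of log2(FPKM + 0.5) over the 9 libraries was fitted with limma 3.58.1 in R 4.3.3 to genes averaging 0.5 FPKM or more, with a mean-variance trend, two-sided tests and Benjamini-Hochberg adjustment over all tested genes. The added 0.5 FPKM understates changes of low genes. An exact permutation test of 3 libraries against 3 cannot give a p under 0.1. Python 3.11.15 made sums and figures. Of these steps, only the limma fit was tested on simulated data, for CeD over control. The members, lists and tests were chosen with earlier results of these data known. Alternatives were other pseudocounts, filters and scalings, only the groups compared, a replicate block, array weights, limma-voom on recovered reads, and libraries left out. Same-numbered CeD and control libraries deviated together (correlations over genes of 0.71, 0.37 and 0.41 for replicates 1 to 3). For replicate 3, however, the highest correlation with another number, 0.46, was above that with its own. CeD+GR 1 stood at 0.37 with CeD 1 and 0.41 with control 1, against at most -0.04 and -0.29 with other numbers. Replicate 1 libraries thus deviated together in all 3 groups. For CeD+GR the third pair stood at -0.12 with CeD and -0.11 with control. CeD+GR 2 stood at 0.25 with CeD 2 and at up to 0.50 with a CeD library of another number. With control 2 it stood at 0.40, against at most 0.36 with a control library of another number. Because the numbers did not pair throughout, the main model had no pairs, and only the replicate block took the numbers as such.

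Values by library were to be given for the 4 members with the smallest unadjusted p per comparison, the 6 with the highest mean and 10 set symbols. Those of Ifit3, Ifit3b, Mx2, Oas1a, Oas1g and Dhx58, the paired ratios, and the values of Il10rb, Oas1b, Cxcl10, Adipoq and Siglech were picked after they had been seen. Shared stretches were counted over GENCODE M21 transcripts. A gene of the lists is not reported here.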

Additional observations from a re-analysis of the deposited data

How the results depend on the processing

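In 6 settings that left out a library and 12 others per comparison, 0 of the 39 genes passed an adjusted p of 0.05 and every median kept its sign. Leaving out each library in turn moved the median log2 fold change between -0.46 and -0.14 for CeD over control, between -0.59 and -0.04 for CeD+GR over CeD and between -0.89 and -0.34 for CeD+GR over control. The other 12 settings gave -0.31 to -0.07, -0.41 to -0.09 and -0.60 to -0.29 in the same order of comparisons. The replicate block left the medians at -0.31, -0.27 and -0.57 and changed no call after adjustment. In this balanced design the block cannot move a fold change. Nor can the other filters, which kept all 39 genes, or the use of only the groups compared. Median-of-ratios rescaling had equal factors and could hardly move one. The unchanged medians of these settings are therefore no sign of stability. The log2 fold change of Isg20 for CeD+GR over CeD was 0.18 to 2.16 with a library left out, and -0.13 when CeD 1 and CeD+GR 3 were both dropped and replicate 1 had a term of its own, a setting that loses the library where it is high. The pooled SD of the median level of the 39 genes within groups was 0.43 (log2), and the median SE of a gene was 0.41.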
